A study of Mus musculus with 4 samples.

Results

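The sensory cluster of mmu-miR-183, mmu-miR-96 and mmu-miR-182 comprises 3 of the 375 microRNA assays read in this survey of whole mouse embryos. Its members were taken by name as the assays for miR-96, miR-182 and miR-183, and each had 1 well in every sample. The survey compared 2 ER-alpha knockout samples (ERaKO, lacking estrogen receptor alpha, the nuclear receptor encoded by Esr1) with 2 wild-type samples (WT). Every sample was total RNA from whole embryos of strain C57BL/6 at E18.5, read by TaqMan real-time PCR over 40 cycles. The labels name neither the knockout allele nor the sex, and they do not say whether a sample was a single embryo or a pool. The p-values therefore cover only the variation among these 4 samples, which technical differences may share in.

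The members are processed from 1 primary transcript and are best known from sensory cells. Hair cells of the inner ear, photoreceptors, taste cells, and olfactory and dorsal root ganglion neurons carry them at high levels in mice. Base changes in the seed of miR-96 cause progressive hearing loss in mice and people. A microRNA seed is the stretch near its 5′ end that pairs with target mRNAs, so members with like seeds can share targets. In a whole embryo the sensory organs are a small part of the RNA, and epithelia also contribute. A lower level from fewer such cells and one from less RNA per cell cannot be told apart here.

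The mature 5′ arms are shown because the seeds, in capitals (bases 2 to 8 from the 5′ end), are what relates the members to each other. The sequences are those of RefSeq for GRCm38.p6, where all 3 names matched, and an assay name without an arm was read as the 5′ arm.
miR-183-5p: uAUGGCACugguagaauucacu
miR-96-5p: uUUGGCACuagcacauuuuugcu
miR-182-5p: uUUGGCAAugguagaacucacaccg

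The seed of miR-96 differed at 1 base from that of either other member. With the base of miR-96 first and positions counted from 1 at the 5′ end, the change to miR-183 is U2A and that to miR-182 is C8A, and the seeds of miR-183 and miR-182 differ at both places. Downstream of the seed the relation is another one. Aligned from the 5′ end without gaps, miR-183 and miR-182 were identical at 12 of 14 positions after the seed and share the run UGGUAGAA, while miR-96 matched miR-183 at 6 of 14 and miR-182 at 5 of 15. Among 1679 mature mouse sequences of RefSeq, only mmu-miR-1271-5p had the same seed as miR-96, and none had that of miR-183 or miR-182. Other microRNAs whose seed differed from a member's at 1 base were matched by name to 9 panel assays, 8 of them to miR-183 (among them mmu-miR-32, mmu-miR-92a and mmu-miR-25) and 1 to miR-96 (mmu-miR-547).

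The hairpins are shown to place the mature 5′ arm, in capitals, in each precursor.
Mir183: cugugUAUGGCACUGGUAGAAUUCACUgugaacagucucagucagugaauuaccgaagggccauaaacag
Mir96: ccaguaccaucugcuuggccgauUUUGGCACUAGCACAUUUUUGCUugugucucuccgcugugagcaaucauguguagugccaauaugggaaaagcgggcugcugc
Mir182: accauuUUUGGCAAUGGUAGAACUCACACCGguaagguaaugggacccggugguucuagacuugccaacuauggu

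In GRCm38.p6 the hairpins lie on the minus strand of chromosome 6 at chr6:30169668-30169737 (Mir183), chr6:30169446-30169551 (Mir96) and chr6:30165918-30165992 (Mir182). All 3 are inside the annotated long noncoding RNA gene Mirc35hg (chr6:30158640-30174125). In the direction of transcription Mir183 comes first, Mir96 follows after a gap of 116 bases, and Mir182 after a further 3453 bases. The cluster spans 3820 bases, so miR-183 and miR-96 are close neighbours and miR-182 stands apart from them.

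**Figure D1:**
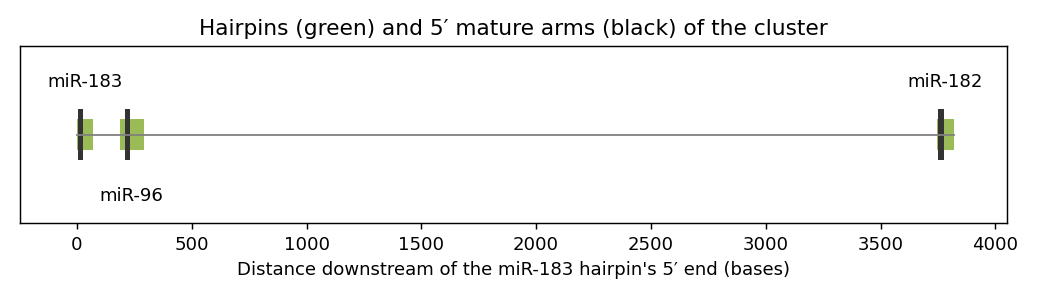
Map of the cluster along its strand, with distance in bases downstream of the 5′ end of the miR-183 hairpin on the x axis. Green bars are hairpins and black bars mature 5′ arms, and the gap is 116 bases from miR-183 to miR-96 and 3453 bases from miR-96 to miR-182.

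Each well gives a threshold cycle (Ct), and a lower Ct means more RNA, with 1 cycle close to 1 log2 unit. A microRNA was called detected at a Ct of 35 or lower. By that rule 260 and 259 microRNAs were detected in ERaKO replicates 1 and 2, and 290 and 254 in WT replicates 1 and 2. In all 4 samples 229 were detected and were tested. Markers of striated muscle, nervous system, liver, endothelium, blood cells and epithelium were detected in all 4 samples for all 17 of their assays. For pluripotent-cell markers 0 of 5 assays were detected in all 4 samples. Detection in single samples did occur, with an earliest Ct of 32.2 among these assays. The transcript of the targeted gene is not read by these assays. WT replicate 1 stood apart: once a constant of 0.273 common to its wells other than U6 is subtracted, 90.0% of its amplified wells are at most 0.1 cycle from an integer cycle, against 21.0% to 26.5% in the other samples, and results are therefore also given without it. Its readings of miR-183, miR-96 and miR-182 lay 0.024, 0.019 and 0.017 cycles from a whole cycle on that scale.

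Of the 3 members, mmu-miR-182 was by far the earliest to amplify, and it varied least between samples other than WT replicate 1. Its Ct was 25.6 and 25.3 in ERaKO replicates 1 and 2, and 27.3 and 25.2 in WT replicates 1 and 2. WT replicate 1 was therefore the late sample, by 2.05 cycles against WT replicate 2. By order of Ct among the 375 microRNA assays, miR-182 stood at rank 60 and 57 in the ERaKO samples and at rank 75 and 62 in the WT samples. Assay efficiencies are unknown, so that order is only a description, and it places miR-182 among the earlier assays of the panel in every sample.

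The reading of mmu-miR-183, the first member of the transcript, came several cycles later. Its Ct was 33.0 and 31.2 in ERaKO replicates 1 and 2, and 33.3 and 30.8 in WT replicates 1 and 2. In each genotype replicate 1 was the later sample, by 1.87 cycles in ERaKO and 2.47 in WT, and the genotypes overlapped. Its rank by Ct was 222 and 189 in ERaKO samples and 265 and 190 in WT samples.

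The latest member was mmu-miR-96, the one with the deafness-linked seed. Its Ct was 33.83 and 31.97 in ERaKO replicates 1 and 2, and 36.25 and 33.16 in WT replicates 1 and 2. The reading of WT replicate 1, the sample with the latest median Ct, is past the detection limit. Thus miR-96 was detected in both ERaKO samples and in 1 of 2 WT samples and was left out of the tested set. The order miR-182, miR-183, miR-96 by Ct held in all 4 samples.

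**Figure D2:**
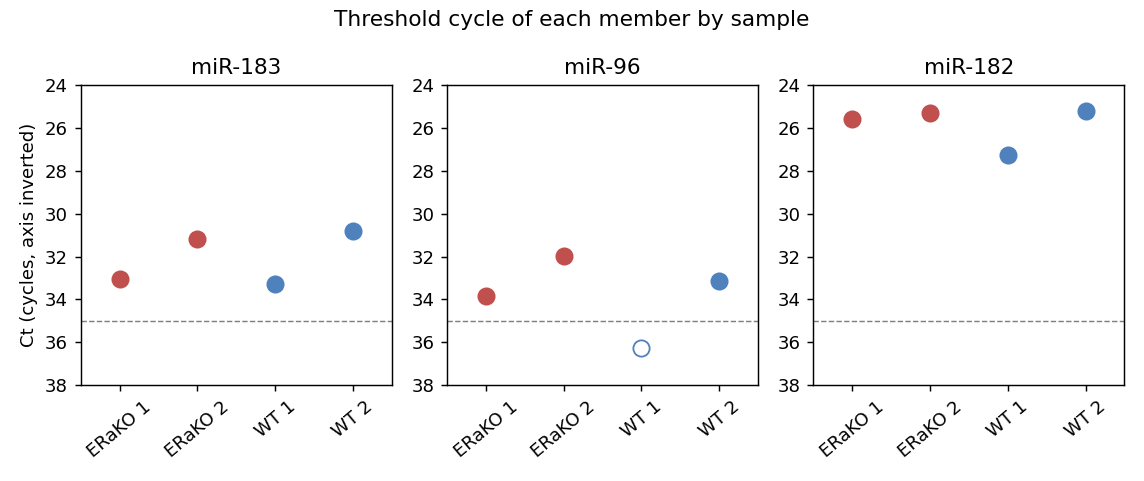
Ct in cycles (y axis, inverted so that more RNA is higher) of miR-183, miR-96 and miR-182 in ERaKO replicates 1 and 2 and WT replicates 1 and 2, 1 point per well. The dashed line is the detection limit of 35, and the open circle is the reading of miR-96 in WT replicate 1 at 36.3, beyond that limit.

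The main comparison asked whether the members differ between ERaKO and WT embryos. Levels are minus the Ct, centred on the median of the 229 microRNAs of the sample, in log2 units. On this scale mmu-miR-182 stood at 2.59 and 2.50 in ERaKO replicates 1 and 2, and at 1.98 and 2.16 in WT replicates 1 and 2. If each cycle is a doubling, that is 6.01 and 5.66 times the median microRNA in ERaKO samples and 3.94 and 4.46 times it in WT samples. Both ERaKO samples lay above both WT samples, which was so for 33.2% of the 229 tested microRNAs. The means were 2.54 ± 0.06 in ERaKO and 2.07 ± 0.13 in WT (SD, n = 2 each), a log2 fold change of 0.48, or 1.39-fold. With limma, which pools the spread over all assays, the standard error was 0.64, the 95% confidence interval of the log2 fold change ran from -0.77 to 1.73 and the adjusted p was 0.939, so the difference did not pass the test. Without WT replicate 1 the log2 fold change was 0.06, and ERaKO replicates 1 (2.69) and 2 (2.82) lay on either side of WT replicate 2 (2.70).

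For mmu-miR-183 the levels were -4.84 and -3.34 in ERaKO replicates 1 and 2, and -4.06 and -3.46 in WT replicates 1 and 2. The WT values lay between the ERaKO values, so the groups overlapped. The means were -4.09 ± 1.06 in ERaKO and -3.76 ± 0.43 in WT (SD, n = 2 each). For this assay the pooled standard error was 0.64, below the 0.81 from its own variance alone and the 0.72 with limma's trend and robust settings. On the pooled one, the log2 fold change of -0.33 had a 95% interval from -1.58 to 0.92 and an adjusted p of 0.939 with limma. Without WT replicate 1 it was -0.97, with levels of -4.75 and -3.03 in the ERaKO samples and -2.92 in WT replicate 2, and 38.2% of 241 microRNAs had both ERaKO samples below that WT sample. Without ERaKO replicate 1 it was 0.41, so its sign depended on which sample was left out. It was 0.19 with quantile normalization.

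The level of mmu-miR-96 was -5.64 and -4.15 in ERaKO replicates 1 and 2, and -7.02 and -5.79 in WT replicates 1 and 2, the first of the WT values from the reading past the detection limit. Both ERaKO samples were above both WT samples, ERaKO replicate 1 by 0.16 above WT replicate 2. Among the 264 microRNAs that amplified in all 4 samples, 31.4% were arranged in this way. The means were -4.89 ± 1.05 in ERaKO and -6.41 ± 0.87 in WT (SD, n = 2 each), a log2 fold change of 1.51. Of 35 other assays with a mean Ct within 1 cycle of that of miR-96, 3 had a log2 fold change as high. With no detection filter limma gave an adjusted p of 0.875 over 375 assays. Without WT replicate 1, where miR-96 passed the filter, the log2 fold change was 0.57 with an adjusted p of 0.949 over 241 assays, and the ERaKO samples (-5.54 and -3.83) lay on either side of WT replicate 2 (-5.26).

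Over the whole panel 0 of 229 microRNAs passed an adjusted p of 0.05 with limma (0.00%), and 10 had an unadjusted p under 0.05 (4.37%), none of them a member of the cluster. That unadjusted count was 68 of 235 without WT replicate 2, 9 of 234 without ERaKO replicate 1, 4 of 241 without WT replicate 1 and 1 of 232 without ERaKO replicate 2, with 0 past the adjusted threshold each time. With ordinary variances in place of the pooled one 0 passed, and miR-182 had an unadjusted p of 0.041 (adjusted p = 0.785). The median log2 fold change of all 229 was 0.26, and it was -0.03 without WT replicate 1. Read against those medians, miR-182 was 0.21 above with all samples and 0.09 above without WT replicate 1, and miR-183 was 0.60 below with all samples and 0.94 below without it.

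Scaling to the 5 small-RNA controls (snoRNA135, snoRNA202, U87, Y1 and MammU6) needs no assumption about the median microRNA. On that scale miR-182 stood at -1.30 and -0.88 in ERaKO samples, and at -2.65 and -1.04 in WT samples, and the groups overlapped. For miR-183 the values were -8.74 and -6.72 in ERaKO and -8.69 and -6.66 in WT samples, nearly the same spread in either genotype. For miR-96 they were -9.53 and -7.53 in ERaKO and -11.7 and -8.99 in WT samples, again with overlap. The log2 fold changes were 0.76 for miR-182, -0.05 for miR-183 and 1.79 for miR-96, and without WT replicate 1 they were -0.05, -1.07 and 0.46. With 1 control at a time, that of miR-182 ranged from 0.49 to 1.35, that of miR-96 from 1.53 to 2.39, and that of miR-183 from -0.32 to 0.54, positive with U87 and Y1. The U87 control itself read a Ct of 26.1 and 28.3 in ERaKO and 26.3 and 27.8 in WT samples, and so differed more between replicate numbers than between genotypes.

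**Figure D3:**
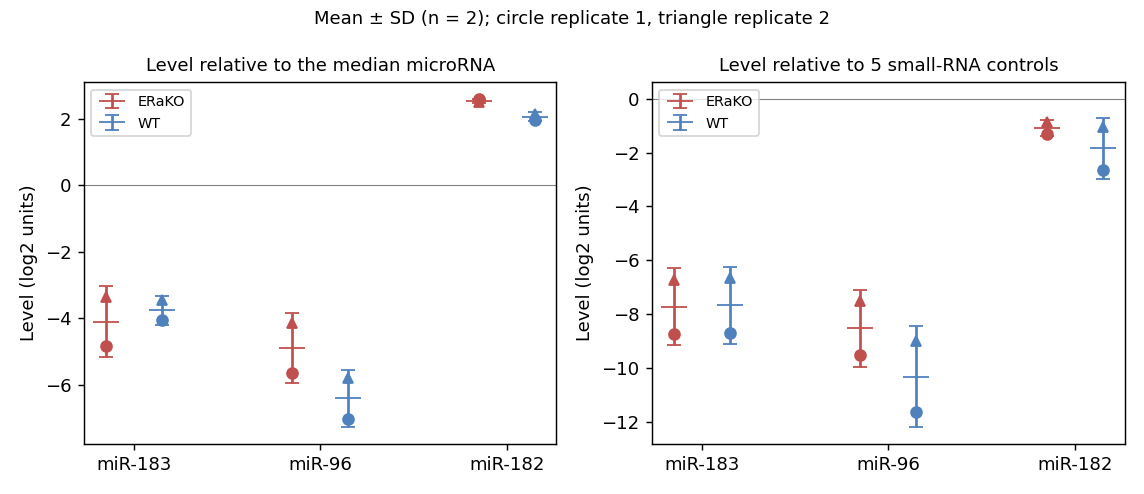
Levels of the members in log2 units, relative to the median microRNA (left) and to the mean of 5 small-RNA controls (right), with ERaKO in red left of WT in blue. Points are samples (circle replicate 1, triangle replicate 2) and bars are mean ± SD (n = 2). The groups of miR-182 and miR-96 are apart on the left and overlap on the right.

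The cluster allows a comparison that needs no scaling between samples, since the difference in Ct between members of the same RNA cancels the input. The Ct of miR-96 minus that of miR-183 was 0.79 and 0.80 in ERaKO replicates 1 and 2, and 2.96 and 2.33 in WT replicates 1 and 2. The first of these WT values, and with it the WT mean, rests on the miR-96 reading past the detection limit (Ct 36.25). The neighbours in the transcript thus read less than 1 cycle apart in both ERaKO samples and more than 2 cycles apart in both WT samples. The means were 0.80 ± 0.01 in ERaKO and 2.65 ± 0.44 in WT (SD, n = 2 each), a difference of -1.85 cycles, so that miR-96 relative to miR-183 was 3.60-fold higher in ERaKO if each cycle is a doubling. An exact two-sided permutation test gave p = 0.333, the smallest that 2 against 2 samples can give, and 0.667 after adjustment over the 3 pairs, so this difference did not pass. The groups of Ct differences did not overlap for 33.1% of the pairs among the 264 microRNAs amplified in all 4 samples, and 7.24% of the pairs both did not overlap and differed by at least as much. Without WT replicate 1 the difference was -1.54 cycles. By size alone, whether or not the groups overlapped, 4.77% of pairs among the 241 microRNAs detected in the remaining samples differed by as much. For the -1.85 cycles with all samples, the share by size alone was 10.9% among the 264 amplified microRNAs and 4.07% among the 229 detected. The 4.77% is therefore not on the same basis as the 7.24%. Pairs of late assays were not set apart in these shares.

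The other 2 pairs overlapped between genotypes. The Ct of miR-183 minus that of miR-182 was 7.43 and 5.85 in ERaKO replicates 1 and 2, and 6.04 and 5.62 in WT replicates 1 and 2. ERaKO replicate 1 was the high sample, and the difference of means was 0.81 cycles (exact permutation p = 0.667, adjusted 0.667). For miR-96 minus miR-182 the values were 8.23 and 6.65 in ERaKO, and 8.998 and 7.951 in WT, with a difference of means of -1.04 cycles (exact permutation p = 0.667, adjusted 0.667). The 8.998 of WT replicate 1 also rests on the miR-96 reading past the detection limit. In WT replicate 1 all 3 differences (2.96, 6.04 and 8.998) lay close to whole cycles, as its readings do.

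**Figure D4:**
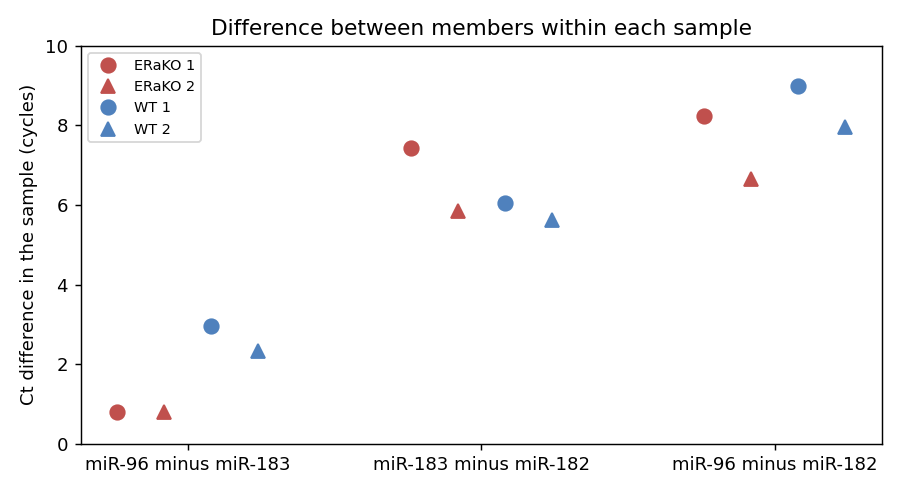
Ct difference in cycles between members of the same sample, by pair, for ERaKO replicates 1 and 2 (red) and WT replicates 1 and 2 (blue), 1 point per sample. For miR-96 minus miR-183 the ERaKO points sit at 0.79 and 0.80, below the WT points at 2.96 and 2.33, and for the other pairs the genotypes overlap. In the pairs with miR-96, the point of WT replicate 1 uses a miR-96 reading of 36.3, beyond the detection limit.

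Between the ERaKO samples, miR-183 and miR-96 differed by almost the same amount while miR-182 did not. The level of ERaKO replicate 1 minus that of replicate 2 was -1.50 for miR-183, -1.49 for miR-96 and 0.09 for miR-182. Among the other 228 tested microRNAs the median size of this difference was 0.44, and 7 were at least as far apart as miR-183. Named after their values were seen, these were mmu-miR-142-5p, mmu-miR-324-3p, mmu-miR-329, mmu-miR-376b, mmu-miR-384-3p, mmu-miR-674 and mmu-miR-687, and only mmu-miR-324-3p was lower in ERaKO replicate 1, as miR-183 was. Late readings differ more: of 34 assays within 1 cycle of the mean Ct of miR-183, 3 were as far apart, and of 35 around miR-96, 15 were. For miR-182, 43 of 46 assays of a like Ct differed by more. With 1 well per assay, a difference between embryos and one between wells cannot be told apart.

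The ratio between members of 1 transcript was then followed over samples, and its spread was set beside that in other clusters. Over ERaKO replicates 1 and 2 and WT replicate 2, the SD of the Ct difference was 0.89 cycles for miR-96 and miR-183, 0.99 for miR-183 and miR-182, and 0.84 for miR-96 and miR-182. The comparison set was 45 pairs inside 12 other small microRNA clusters, picked by hand and each treated as 1 transcript. Examples are miR-17-92, miR-106b-25 and the one of miR-200a, miR-200b and miR-429. Any further genomic copies of these microRNAs were not taken into account, and mmu-miR-351 and rno-miR-351 counted as separate assays. The set holds only microRNAs detected in all 4 samples. The member miR-96 was not, so the pairs with miR-96 are not on a like basis. In this set the SD ranged from 0.04 to 0.77 with a median of 0.24, and all 45 were below each of the 3 member pairs. That did not hold for the large imprinted cluster from mmu-miR-379 to mmu-miR-410, which was added after these values were seen: its 323 pairs had a median SD of 0.42 and a highest of 1.87, and 59, 43 and 61 of them were at least as wide as the 3 member pairs in the order above. The pair of mmu-miR-329 and mmu-miR-376b in that cluster stood at 1.20. A spread as wide as that of the members is therefore found in another cluster too. The median of all pairs of the 229 tested microRNAs was 0.39. With WT replicate 1 included, the SDs were 1.10, 0.82 and 0.98 cycles, and 41, 37 and 41 of the 45 pairs were below them.

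Pairs that hold a late assay had a wider spread. Only 6 of the 45 pairs, from 3 clusters, held an assay with a mean Ct of 31 or later, a limit set after the values were seen, and their SDs without WT replicate 1 ran from 0.04 to 0.59. All 9816 pairs of tested microRNAs with such a late assay had a median SD of 0.59 without that sample. Of them, 72.2% had a smaller SD than miR-96 and miR-183, 79.2% a smaller one than miR-183 and miR-182, and 69.1% a smaller one than miR-96 and miR-182. These pairs need only 1 late assay and hold only microRNAs detected in all 4 samples. In the pair of miR-96 and miR-183 both assays are late. Since miR-96 is outside that set, the shares for its pairs are not on a like basis. How far late readings account for the spread of the members was not tested.

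**Figure D5:**
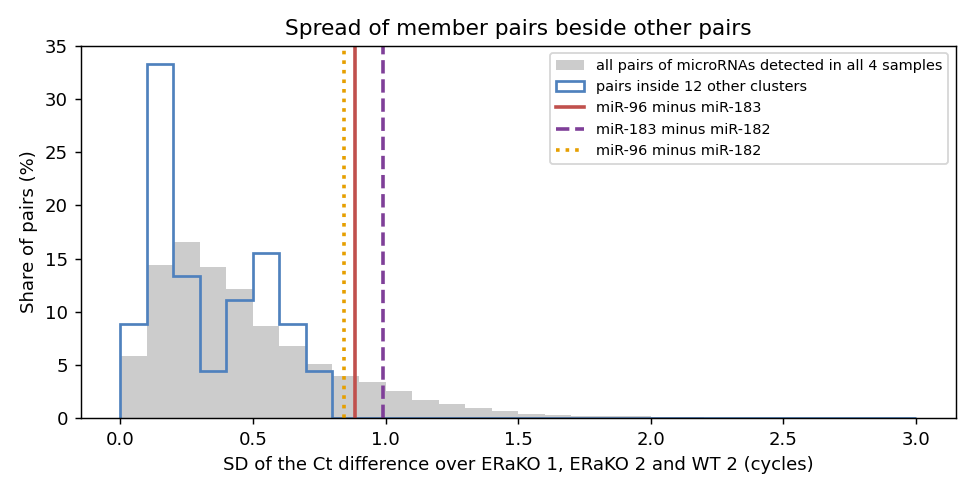
Share of pairs in percent (y axis) by the SD of their Ct difference in cycles over ERaKO replicates 1 and 2 and WT replicate 2 (x axis). Grey bars are all pairs of the 229 microRNAs detected in all 4 samples, the blue outline 45 pairs inside 12 other clusters, and the vertical lines the pairs of members at 0.84, 0.89 and 0.99 cycles, to the right of these 45 pairs. Pairs of the cluster from mmu-miR-379 to mmu-miR-410, which reach 1.87 cycles, are not in the outline. The outline, like the bars, holds only microRNAs detected in all 4 samples, which miR-96 was not.

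The tested microRNAs whose pattern over the 4 samples was closest to the mean of miR-183 and miR-182, by root mean square distance of levels centred on their own mean, were mmu-miR-132 (0.03 log2 units), a microRNA of active neurons, mmu-miR-135b (0.07), mmu-miR-532-3p (0.12), mmu-miR-491 (0.14) and mmu-miR-148b (0.21). The level of mmu-miR-132 was -0.10 and 0.56 in ERaKO replicates 1 and 2, and -0.06 and 0.41 in WT replicates 1 and 2. It was thus higher in replicate 2 of either genotype, with a log2 fold change of 0.05. The members themselves were farther from each other, at 0.71 between miR-183 and miR-182, 0.95 between miR-183 and miR-96 and 0.85 between miR-96 and miR-182. Of the 227 other tested microRNAs, 42 were closer to miR-183 than miR-182 was, and 171 were closer to it than miR-96 was. To miR-182, 190 were closer than miR-183 was and 206 closer than miR-96 was, and to miR-96, 87 were closer than miR-183 was and 53 closer than miR-182 was. The average Ct over the 3 members is 30.6, which lies near none of them, and the 5 tested microRNAs nearest to it were mmu-miR-467b, mmu-let-7f, mmu-miR-221, mmu-miR-128a and mmu-miR-675-3p, with log2 fold changes from -0.38 to 0.34.

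Other microRNAs of the tissues that carry the cluster were read beside it, and 0 of their tested assays passed an adjusted p of 0.05. Over all tested microRNAs 156 of 229 (68.1%) had a higher level in ERaKO, which is the share to read the counts of each list against. Of 10 tested microRNAs known from the eye, 4 were higher and 6 lower in ERaKO, with a median log2 fold change of -0.28 (-0.48 without WT replicate 1), against 0.26 (-0.03) over all tested. The values farthest from 0 were those of mmu-miR-181c (-1.69), mmu-miR-181a (-1.16) and the neuronal mmu-miR-124 (-0.92). Of 8 microRNAs reported in the inner ear, 5 were higher and 3 lower, with a median of 0.14 (-0.03), and values of -1.58 for mmu-miR-199a-5p, 0.66 for mmu-miR-30b and 0.58 for mmu-miR-199a-3p. Without WT replicate 1, mmu-miR-199a-5p stood at -0.23, mmu-miR-30b at -0.03, mmu-miR-199a-3p at 0.16 and mmu-miR-181c at -0.70.

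Neuronal microRNAs had a median of 0.34 (0.02 without WT replicate 1), with 5 of 7 higher in ERaKO, mmu-miR-138 at 1.39 (0.39), mmu-miR-124 on the lower side at -0.92 (-0.62) and mmu-miR-218 at 0.49 (0.03). The neuroendocrine mmu-miR-7b, mmu-miR-375 and mmu-miR-7a had a median of 0.57 (-0.36), with values of 1.11 (1.37), 0.57 (-0.36) and 0.02 (-0.54). Epithelial microRNAs had a median of 0.38 (-0.08), with 6 of 7 higher, mmu-miR-203 at 0.81 (-0.08), mmu-miR-205 at -0.46 (-0.10) and mmu-miR-200b at 0.43 (0.13). Between the ERaKO samples, where miR-183 and miR-96 differed by about 1.5 log2 units, the median difference (replicate 1 minus replicate 2) of these lists ran from 0.11 for the eye to 0.44 for the inner ear, and it was 0.33 over all tested microRNAs. Single microRNAs of the lists were lower in ERaKO replicate 1 as miR-183 and miR-96 were, namely 5 of 10 from the eye, 1 of 8 from the inner ear, 3 of 7 neuronal ones (mmu-miR-132 among them), 1 of 3 neuroendocrine and 1 of 7 epithelial ones, beside 55 of all 229. Whether these levels and those of the members move together was not tested.

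Of the 9 panel assays with a seed 1 base from that of miR-183 or miR-96, 6 were tested. Their log2 fold changes ran from -0.18 for mmu-miR-32 to 0.72 for mmu-miR-489, with 4 higher and 2 lower in ERaKO. Over all tested microRNAs 68.1% were higher. The values of mmu-miR-652, mmu-miR-92a and mmu-miR-25 were 0.35, 0.67 and 0.71, and without WT replicate 1 they were -0.31, -0.58 and -0.19. The value of mmu-miR-32 was 0.21 and that of mmu-miR-425 0.35 (-0.02 with all samples) without it. In all, 5 of the 6 changed sign without WT replicate 1, which left 3 higher and 3 lower. The median of all tested microRNAs also changed sign in that step, from 0.26 to -0.03.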

How the data were processed

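The deposited values are threshold cycles, used here as a score per well, per the file headers, from TaqMan assays on a 7900HT instrument with TRIzol RNA, per the labels' protocols. Threshold, baseline and any normalization are not given in the sources used here. Wells without amplification are undetermined in 3 files. In that of WT replicate 1, 39 wells read above cycle 40 and were treated as not amplified, and its constant of 0.273 was kept. The 4 U6 wells were averaged, and 1141 lines without an assay were not used. The U6 wells read a Ct of 15.58 to 16.72 in WT replicate 1 and 15.79 to 15.97 in WT replicate 2. In ERaKO replicates 1 and 2 they read 15.76 to 15.90 and 15.39 to 15.79.

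The genotypes were compared by a two-sided moderated test, fitted on genotype alone with limma 3.58.1 (R 4.3.3), and p-values were adjusted by Benjamini-Hochberg over the 229 microRNAs. Because the estimated prior degrees of freedom had no finite value, 1 standard error holds for every assay. Member pairs were tested with an exact permutation test (scipy 1.17.1). The fit was tested on simulated data. Fits without a sample repeat the detection filter and centring on the remaining samples. Only 2 samples per group limit the precision, and PCR gives no read depth.

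Named microRNAs were the members, the 5 most alike in pattern and nearest in Ct, the controls, and up to 3 per list by absolute fold change. The members, lists and tests were chosen with earlier results of these data known. Python 3.11.15, pandas 2.3.3 and matplotlib 3.10.9 served for reading and plots.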

Additional observations from a re-analysis of the deposited data

How the results depend on the processing

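Over the alternatives that kept all samples (control scaling, no normalization, quantile and average-profile centring, detection at a Ct of 32, no filter, the constant removed, the replicate block, ordinary variances, trend and robust settings), the log2 fold change of miR-182 stayed positive in all 10 and did not pass in any. That of miR-183 reversed to 0.19 with quantile normalization, and it has no value at a Ct of 32. That of miR-96 stayed positive wherever it could be computed. Each sample left out in turn, with the lone sample of a group assumed to vary like the other group, gave 0.06 to 0.68 for miR-182, -1.16 to 0.41 for miR-183 (positive without ERaKO replicate 1 and, at 0.08, without WT replicate 2) and 0.57 to 2.25 for miR-96. The Ct difference of miR-96 minus miR-183 ran from -2.16 to -1.54, that of miR-183 minus miR-182 from 0.02 to 1.60 and that of miR-96 minus miR-182 from -1.82 to -0.25. Without WT replicate 1 and with control scaling, an alternative added after seeing the data, the log2 fold change of miR-182 reversed to -0.051. The cause of these moves was not tested. In all these fits 0 microRNAs were called except under the replicate block, with 1 call, which was no member. The replicate block left the values of the members and their pairs as they were. Deviations from the group means correlated between samples of the same number (r = 0.37 across 229 assays, which are not independent), but the labels give the numbers no meaning and there are only 2, so the samples were left unpaired. A limit of 32 cycles for the members left miR-182 alone and no pair.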
